A study of Mus musculus with 17 samples.

Results

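Apolipoprotein genes of the Apoe-Apoc2 cluster and genes of cellular lipid efflux were described across 2 kinds of mouse macrophage. The set held 10 of the 24453 gene models of the deposited expression table, at 9 distinct loci: Apoe, Apoc1, Apoc2 and Apoc4-apoc2, the transporters Abca1 and Abcg1, the receptors Nr1h3 and Nr1h2, and the target genes Lpl and Mylip. The set was selected on the difference between the libraries labelled JunDKO and Scramble in these same data, in which Apoc2 and Apoc4-apoc2 stood higher. Values of the 10 genes in that contrast are therefore given as a description without a test, and tests are given for the other contrasts.

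PolyA RNA-seq covered 13 libraries. Immortalized bone marrow-derived macrophages (iBMDMs) came from C57Bl/6EiJ marrow that had been transformed with mutant BRAF and Myc, and a line carrying Cas9 received lentiviral guides against Atf3 (Atf3KO), Jun (JunKO) or Jund (JunDKO), or a scramble control guide (Scramble, whose library titles read zsGreen). The edited cells were sorted as pools on a fluorescent reporter, were vehicle treated, and gave 2 libraries per group. Thioglycollate-elicited macrophages (TGEMs), primary peritoneal cells, were treated with vehicle or for 1 h with KLA, which is Kdo2 lipid A and stimulates the endotoxin receptor TLR4. From C57Bl/6EiJ mice there was 1 library with vehicle and 1 with KLA, from Balb/cJ mice 1 with vehicle and 2 with KLA. For the elicited cells the methods of the study name the former strain C57Bl/6J. ATF3, JUN and JUND are subunits of AP-1, the dimeric transcription factor whose monomers were edited. All mice are labelled male. The study also lists 4 nascent RNA (GRO-seq) samples, which were not analysed here.

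Macrophages take up lipoprotein and cell debris and must export the cholesterol they cannot degrade. The oxysterol-sensing nuclear receptors LXR alpha (Nr1h3) and LXR beta (Nr1h2) bind DNA with RXR partners and switch on the exporters ABCA1 and ABCG1, the acceptor protein apolipoprotein E, and the ubiquitin ligase MYLIP, which limits lipoprotein uptake. The small apolipoproteins C1, C2 and C4 lie next to Apoe in the genome, and in macrophages this cluster is known to answer to LXR through shared distal enhancers. Apolipoprotein C2 is the obligate cofactor of lipoprotein lipase (Lpl), which hydrolyses triglyceride at the cell surface.

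The cluster lies on chromosome 7 of GRCm38 (mm10), minus strand. The models counted by the authors were Apoe (chr7:19696244-19698621), Apoc1 (chr7:19689480-19692659), Apoc2 (chr7:19671579-19673920) and Apoc4-apoc2 (chr7:19671579-19681460), a readthrough model that starts in the first exon of Apoc4 and ends in Apoc2. Apoc2 and the readthrough each have 4 exons and share 488 exonic bases, 85.0% of those of Apoc2 and 75.8% of those of the readthrough. Their values therefore rest largely on the same reads and count as 1 observation of the locus. Apoc4 itself (chr7:19678084-19681460) shares 156 bases with the readthrough and 0 with Apoc2. RefSeq promoter windows (GRCm38.p6, 250 bases before and 50 after a start site) were matched for 6 of the 10 genes, namely Apoe, Apoc2, Abca1, Nr1h3, Nr1h2 and Mylip. Those of Apoc2, Apoe and Abca1 are shown: Apoc2 spanned the widest range within iBMDMs, Apoe stood furthest apart between the cell sources, and Abca1 is the efflux transporter called in Atf3KO. Capitals mark matches on either strand to the AP-1 sites TGAGTCA and TGACGTCA, the nuclear receptor core site AGGTCA, or a DR4-like element (GGTNA and GGTCA with 5 bases between them), the last written with the known LXR element of Abca1 in mind.
Apoc2 (chr7:19677892-19678191, minus strand): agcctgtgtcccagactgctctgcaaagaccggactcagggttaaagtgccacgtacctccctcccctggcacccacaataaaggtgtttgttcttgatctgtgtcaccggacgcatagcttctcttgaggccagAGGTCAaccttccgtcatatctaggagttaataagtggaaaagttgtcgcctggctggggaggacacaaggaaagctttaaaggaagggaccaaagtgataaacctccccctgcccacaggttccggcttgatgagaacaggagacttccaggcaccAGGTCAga
Apoe (chr7:19698572-19698871, minus strand): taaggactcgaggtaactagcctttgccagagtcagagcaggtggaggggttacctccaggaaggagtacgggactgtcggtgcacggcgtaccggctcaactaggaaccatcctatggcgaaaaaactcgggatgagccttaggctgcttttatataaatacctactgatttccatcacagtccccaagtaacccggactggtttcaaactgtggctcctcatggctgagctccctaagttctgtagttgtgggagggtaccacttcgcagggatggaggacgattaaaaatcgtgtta
Abca1 (chr4:53159846-53160145, minus strand): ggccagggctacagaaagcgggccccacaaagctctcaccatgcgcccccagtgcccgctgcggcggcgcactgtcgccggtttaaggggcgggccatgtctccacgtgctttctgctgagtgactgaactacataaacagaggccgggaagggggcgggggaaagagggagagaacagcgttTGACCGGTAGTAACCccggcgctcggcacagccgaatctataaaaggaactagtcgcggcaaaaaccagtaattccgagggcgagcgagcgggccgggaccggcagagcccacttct
The Apoe and Abca1 windows surround the start of the model that was counted. The Apoc2 window surrounds a RefSeq start 4021 bases upstream of the start of the counted Apoc2 model. The Apoc2 window held 2 core sites, the Abca1 window held 1 DR4-like element on the opposite strand, and the Apoe window held no match. Over all 32851 RefSeq promoter windows, 16.3% held the core site, 0.207% the DR4-like element, 5.20% the AP-1 site TGAGTCA and 1.79% the AP-1 site TGACGTCA. A match describes letters only and says nothing of binding.

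Values are RPKM, reads per kilobase of exon scaled to the depth of the library, and depth was recovered from their step size as 1553296 to 18444320 reads per library. The deeper JunDKO library held 18444320 reads and the shallower one 1553296. RNA of Atf3 and Jun was not lower in the groups edited for them, whereas Jund was lowest in its own: in Scramble Atf3 was at 80.7 and 77.4 RPKM and in the libraries labelled Atf3KO at 154 and 169, Jun measured 26.2 and 20.5 in those labelled JunKO against 17.6 and 18.5, and Jund 6.94 and 6.07 in those labelled JunDKO against 9.19 and 8.33 and at least 9.74 in the 4 remaining libraries. RNA of an edited gene can persist, and the study assessed the knockouts by western blotting, which was not analysed here. Groups are named by their labels. All 8 macrophage markers had reads in iBMDMs and in TGEMs. Markers of hepatocytes and adipocytes, other sources of apolipoproteins and lipoprotein lipase, summed to at most 0.63 and 0.317 RPKM in any library. Fibroblast markers summed to 33.7 to 71.2 RPKM in TGEMs and to at most 0.426 in iBMDMs, and their part in the results was not tested. Xist reads (863 to 8676 per library) were present in the TGEM libraries despite their male label. Fewer gene models had reads in the Atf3KO libraries (10425 and 10631) than in the 6 remaining iBMDM libraries (11884 to 12533), and Atf3KO replicate 2 carries another date in its title than the other 7.

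Apoc2 spanned the widest range of the cluster within iBMDMs. It measured 8.21 and 8.23 RPKM in Scramble, 131 and 169 in the libraries labelled Atf3KO, 24.8 and 17.5 in those labelled JunKO, and 638 and 519 in those labelled JunDKO. The order JunDKO, Atf3KO, JunKO, Scramble held without overlap between any 2 groups. In JunDKO Apoc2 ranked 42 and 49 among all gene models by RPKM, whereas in Scramble it ranked 6089 and 6011. The Scramble values rest on 9 and 8 reads, the JunDKO values on 563 and 5437. Group means were 8.22 ± 0.0134 (SD, n = 2) in Scramble and 578 ± 84.2 (SD, n = 2) in JunDKO, a ratio of 70.4, and the difference was 5.97 on the log2(RPKM + 1) scale.

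The readthrough model Apoc4-apoc2 followed Apoc2 in every library. It measured 7.31 and 8.24 RPKM in Scramble, 117 and 151 with the Atf3KO label, 23.9 and 16.5 with JunKO and 588 and 478 with JunDKO. Both models had 327 reads in Atf3KO replicate 1 and 696 in replicate 2. In the JunDKO libraries the readthrough exceeded Apoc2 by 20 and 188 reads, and Apoc4, whose first exon it contains, had 2 and 11 reads. In the other 6 iBMDM libraries the excess was at most 2 reads, and Apoc4 had 0 reads. Apoc4 reached 2.51 and 1.16 RPKM in JunDKO. The bases that the readthrough has beyond Apoc2 are those it shares with Apoc4, yet its excess in JunDKO was larger than the reads of Apoc4. This was not resolved. The Apoc2 model alone counted 563 and 5437 reads there, so that nearly all reads of the locus fell on exons of Apoc2.

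Apoc1, a small apolipoprotein that inhibits lipoprotein uptake and lipase action, was detected in JunDKO among the iBMDM groups. It measured 22.7 and 8.02 RPKM there, from 15 and 63 reads, and had 0 reads in the 6 other iBMDM libraries. The 0 reads allow up to 0.973 to 4.13 RPKM per library (3 reads, counting error only), below both JunDKO values. Apoc1 passed the filter on low values in iBMDMs only through JunDKO.

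Apoe, the best known macrophage apolipoprotein, was scarce in iBMDMs. Scramble had 4.80 and 5.41 RPKM of it, Atf3KO 0 and 0.582, JunKO 2.97 and 0.983, and JunDKO 19.0 and 12.9. JunDKO was highest, Scramble next, and the Atf3KO libraries were lowest, with 0 and 5 reads in libraries of 4397162 and 7236842. The 0 in Atf3KO replicate 1 allows up to 0.575 RPKM. The read rate in Scramble was 14.1-fold that in Atf3KO (22 against 5 reads, exact 95% interval 5.19 to 47.5, counting error only). Apoe thus stood lower in the libraries labelled Atf3KO while Apoc2, less than 30 kb away, stood higher.

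**Figure D1:**
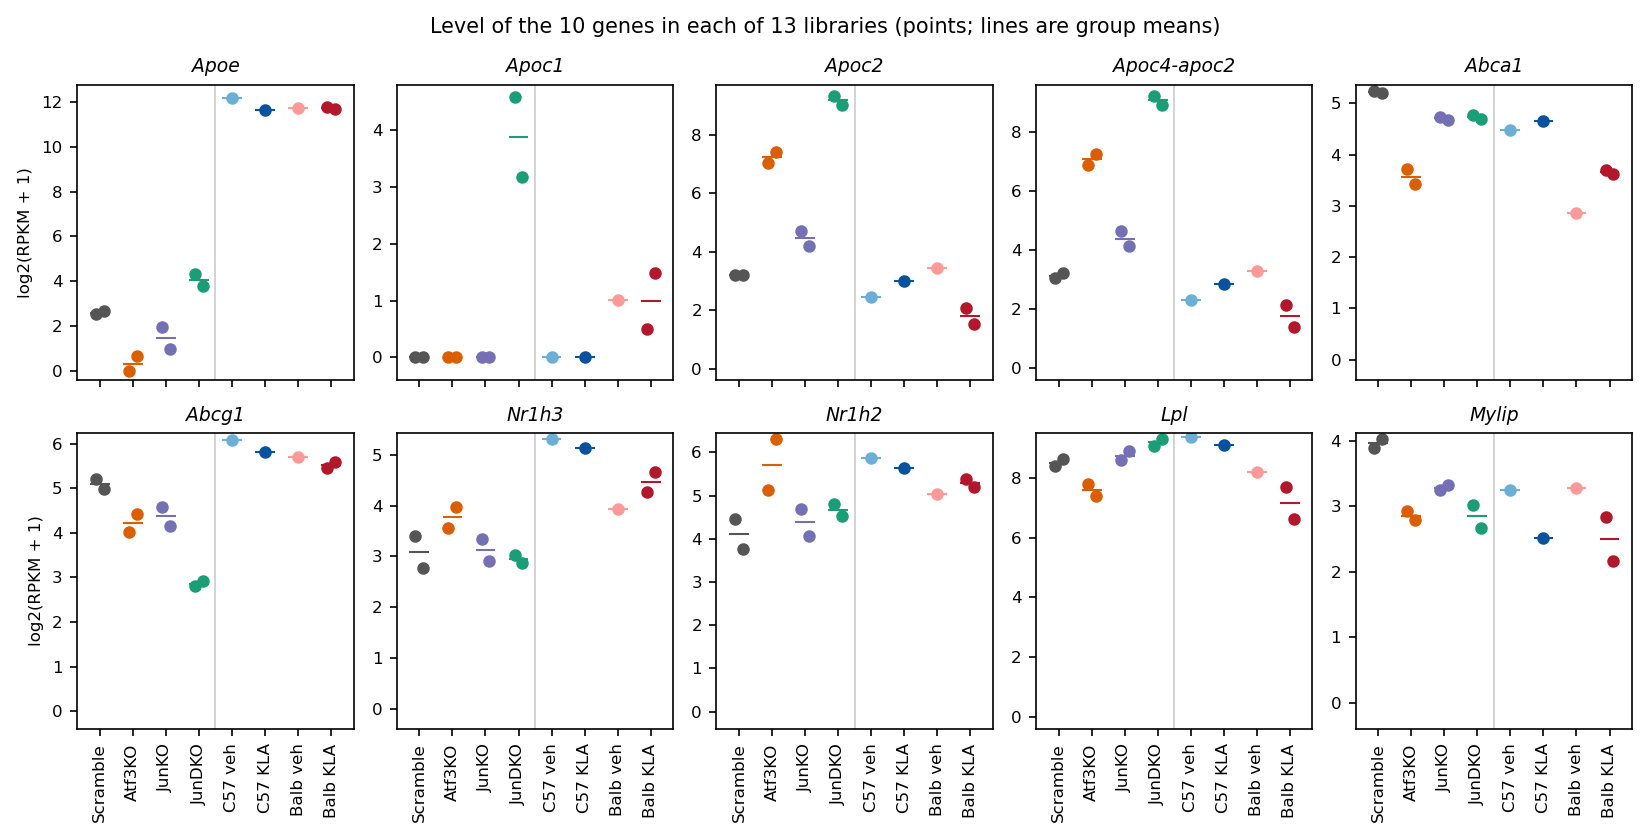
Level of each of the 10 genes, as log2(RPKM + 1), in 8 iBMDM libraries (left of the grey line) and 5 TGEM libraries (right of it), with 1 point per library and a line at each group mean. Apoc2 runs from 8.22 RPKM on average in Scramble to 578 in JunDKO, whereas Apoe is at least at 3214 RPKM in every TGEM library and at most 19.0 RPKM in every iBMDM library.

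Apoe far exceeded Apoc2 in TGEMs, whereas Apoc2 was the higher of the pair in all 8 iBMDM libraries. In TGEMs Apoe measured 4567 and 3214 RPKM in C57Bl/6EiJ cells with vehicle and KLA, and 3383, 3479 and 3234 in Balb/cJ cells with vehicle, KLA replicate 1 and KLA replicate 2. It ranked between 7 and 12 among all gene models in each of these 5 libraries. Apoc2 measured 4.48 and 7.03 RPKM in the C57Bl/6EiJ vehicle and KLA libraries and 9.77, 3.17 and 1.87 in the 3 Balb/cJ libraries, from 7 to 31 reads. Compared per length within a library, Apoe exceeded Apoc2 by 346 to 1727 times in TGEMs. It was at 0.585 and 0.658 times the level of Apoc2 in Scramble, where both rest on 8 to 11 reads, at 0.120 and 0.0563 times in JunKO, at 0.0297 and 0.0248 times in JunDKO, and at 0 and 0.00344 times in Atf3KO. The sources differ in origin, transformation, culture and date, so that these levels cannot be assigned to any 1 of them, and no test was made between the sources.

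Against Scramble, 4 of the 9 genes with reads in either group were called in the libraries labelled Atf3KO, or 3 of 8 loci with Apoc2 and Apoc4-apoc2 as 1, beside 12.5% of the 10691 genes tested. Apoc1, with 0 reads in Atf3KO, JunKO and Scramble, is left out of the counts between these groups. A call required a limma-trend adjusted p under 0.05 over all genes tested, a change of at least 2-fold on the log2(RPKM + 1) scale and 16 RPKM or more as the mean of 1 of the groups. Apoc2, Apoc4-apoc2 and Nr1h2 were higher and Abca1 was lower. Apoc2 rose by 4.02 ± 0.23 (log2, SE, limma-trend adjusted p = 8.15e-05) and the readthrough by 3.93 ± 0.23 (limma-trend adjusted p = 8.74e-05), which are 16.3-fold and 15.2-fold. Both calls held in all 20 alternative settings, with log2 changes of 3.54 to 4.21 for Apoc2. Without Atf3KO replicate 2, the library with another date, Apoc2 stood 3.84 above Scramble (limma-trend adjusted p = 0.00237), with the lone Atf3KO library assumed to vary like the other groups. This contrast shares the Scramble libraries with the one on which the genes were picked. Apoe was lower by 2.28 on the log2 scale (limma-trend adjusted p = 0.00382) but never reached the 16 RPKM that a call requires. This value depends on the added RPKM and was -4.32 with 0.1 added and -0.94 with 5 added. The median log2 change of the 9 genes was -0.89, against 0.05 over all genes tested.

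The contrast of Atf3KO with JunKO compares no library on which the genes were picked, although its error and filter come from all 8 iBMDM libraries. There 5 of the 9 genes with reads, or 4 of 8 loci, were called, beside 9.71% of all genes tested. Apoc2 was higher by 2.78 ± 0.23 (log2, SE, 2 libraries per group, adjusted p = 0.000303 by limma-trend), a 6.87-fold difference, and it was called in all 20 alternatives. Apoc4-apoc2 was higher by 2.68 ± 0.23 (limma-trend adjusted p = 0.000418), also in all 20. With these 2 groups fitted alone the adjusted p by limma-trend was 0.00809 for Apoc2 and 0.00881 for Apoc4-apoc2. Nr1h2 was higher by 1.33, and Abca1 and Lpl were lower by 1.13 and 1.16. With the GC trend removed, or without Atf3KO replicate 2, the Apoc2 pair alone was called.

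In the libraries labelled JunKO 0 of the 9 genes with reads were called by limma-trend against Scramble, beside 0.196% of all genes tested. At an unadjusted p under 0.05 there were 6 of the 9, or 5 of 8 loci, beside 7.88% of all genes, and limma-voom on the recovered reads also called 0. This contrast, too, shares the Scramble libraries with the one on which the genes were picked. Apoc2 and Apoc4-apoc2 are among the 6, so that the count is no support for the set. Apoc2 stood 1.24 ± 0.23 above Scramble (limma-trend adjusted p = 0.105) and Apoc4-apoc2 1.25 ± 0.23 (adjusted p = 0.119 by limma-trend). Both JunKO libraries lay above both Scramble libraries, on 24 and 17 against 9 and 8 reads of Apoc2. With the GC trend removed both models were called, Apoc2 at 1.23 (limma-trend adjusted p = 0.0126). Apoe stood 1.12 below Scramble (limma-trend adjusted p = 0.490).

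**Figure D2:**
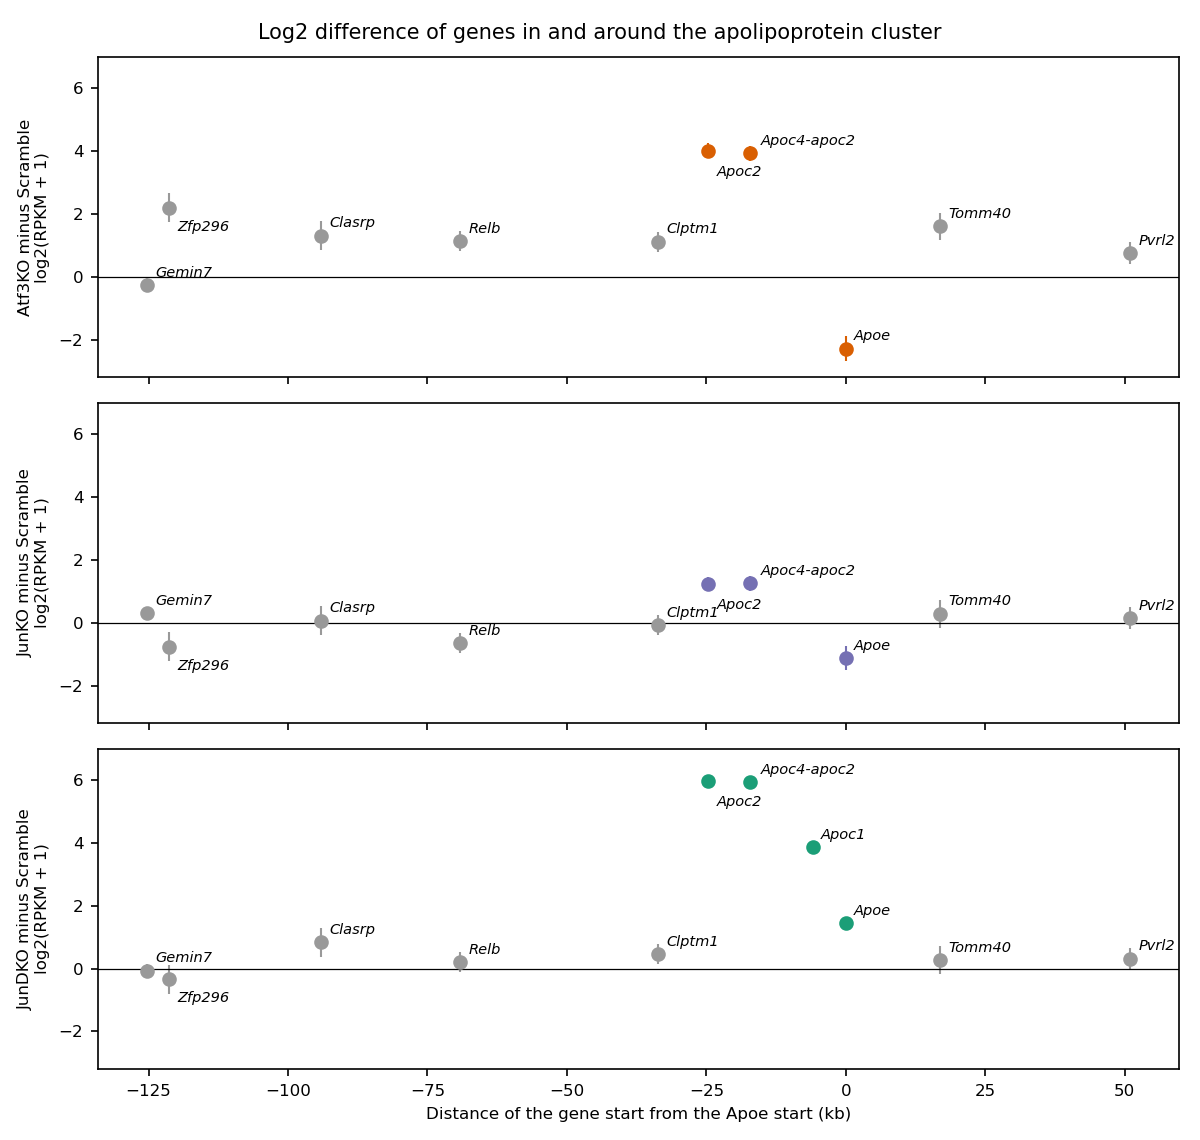
Log2 difference from Scramble, on the log2(RPKM + 1) scale, of genes in and around the cluster against the distance of their start from that of Apoe in kb. Coloured points are the apolipoprotein models and grey points their neighbours, bars are SE from limma-trend (none for the apolipoproteins in JunDKO, where they were picked), and genes with 0 reads in both groups are not drawn. Apoc2 and Apoc4-apoc2 lie at 3.93 to 5.97 in Atf3KO and JunDKO, Apoe at -2.28 in Atf3KO and 1.45 in JunDKO, and the value of Apoc1 in JunDKO depends on the added 1 RPKM because Scramble has 0 reads.

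In JunDKO no neighbour of the cluster was called, and in Atf3KO 2 were. Within 100 kb of the span from Apoe to Apoc2, 7 other models besides the members were tested in iBMDMs, and in JunDKO 0 of the 7 were called or had a limma-trend adjusted p under 0.05, with a median log2 difference of 0.26 beside 0.24 for all genes tested and 4.97% of all genes called. Clptm1, which lies directly downstream of Apoc2, measured 18.1 and 16.6 RPKM in JunDKO against 15.2 and 9.94 in Scramble. Tomm40, the mitochondrial import pore gene upstream of Apoe, measured 43.0 and 30.1 against 39.0 and 22.9. In Atf3KO the median of the 7 was 1.14 beside 0.05 over all genes, 6 of the 7 were positive, 4 had a limma-trend adjusted p under 0.05, all higher, beside 41.2% of all genes, and 2 were called, beside 12.5%: Clptm1 by 1.12 ± 0.32 (log2, SE, limma-trend adjusted p = 0.0242) and Tomm40 by 1.61 ± 0.44 (limma-trend adjusted p = 0.0215). Both calls were lost without Scramble replicate 2 (1.24 for Tomm40 and 0.83 for Clptm1), without Atf3KO replicate 2 (1.00 and 0.92) and with the GC trend removed (0.70 and 0.76). That of Clptm1 was also lost without either JunDKO library, at an adjusted p of 0.0511 and 0.0528, with 5 RPKM added (0.92), after quantile normalization (0.92) and with the library medians made equal (0.997). That of Tomm40 was also lost with no filter on low values, at an adjusted p of 0.0508.

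The efflux transporters did not share the pattern of Apoc2. Abca1, which loads cholesterol onto lipid-poor apolipoproteins, measured 37.0 and 35.9 RPKM in Scramble, 12.1 and 9.79 with the Atf3KO label, 25.5 and 24.6 with JunKO and 26.2 and 24.8 with JunDKO. Scramble was highest and Atf3KO lowest, with JunKO and JunDKO overlapping between them. In Atf3KO Abca1 fell by 1.66 ± 0.18 (log2, SE, limma-trend adjusted p = 0.000642), a 3.15-fold decrease, in all 20 alternatives. Against JunKO it was lower by 1.13 ± 0.18 (limma-trend adjusted p = 0.00342). Without Atf3KO replicate 2 this second difference fell just under 2-fold (0.99). In JunKO Abca1 stood 0.52 below Scramble (limma-trend adjusted p = 0.464), and in JunDKO 0.50 below.

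Abcg1, which moves cholesterol to mature HDL, had its lowest values in JunDKO. It measured 36.2 and 30.8 RPKM in Scramble, 15.3 and 20.3 with the Atf3KO label, 23.1 and 16.8 with JunKO and 5.99 and 6.53 with JunDKO. The JunDKO libraries lay below the 6 others, and Atf3KO and JunKO overlapped. The JunDKO difference was -2.24 on the log2 scale, from -1.77 to -2.52 under the alternatives. In Atf3KO Abcg1 was 0.89 ± 0.23 below Scramble (limma-trend adjusted p = 0.0172), under 2-fold. It was called at -1.08 without Atf3KO replicate 2, at -1.10 with the GC trend removed and after either rescaling of the libraries, whereas its adjusted p by limma-trend was 0.0908 without Scramble replicate 1, 0.0594 without Scramble replicate 2 and 0.064 without Atf3KO replicate 1. In JunKO it stood 0.73 below Scramble (limma-trend adjusted p = 0.404).

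Of the receptors, Nr1h2 was called in Atf3KO and Nr1h3 was not. Nr1h3, LXR alpha, measured 9.55 and 5.88 RPKM in Scramble, 10.8 and 14.7 with the Atf3KO label, 9.18 and 6.52 with JunKO and 7.19 and 6.33 with JunDKO. Scramble, JunKO and JunDKO overlapped, and the 0.68 by which Atf3KO stood higher was not called (limma-trend adjusted p = 0.0864). Nr1h2, LXR beta, measured 21.0 and 12.6 RPKM in Scramble, 33.7 and 78.7 with the Atf3KO label, 25.0 and 15.8 with JunKO and 27.1 and 22.2 with JunDKO. The Atf3KO libraries were highest, and differed by more than 2-fold from each other. Nr1h2 rose by 1.61 ± 0.42 in Atf3KO (log2, SE, limma-trend adjusted p = 0.0172). The call was lost without Atf3KO replicate 2 (adjusted p = 0.0963 by limma-trend), without Scramble replicate 2 (1.26, adjusted p = 0.127 by limma-trend) and with the GC trend removed (0.70). Against JunKO it was higher by 1.33 (limma-trend adjusted p = 0.0388), and 12 of 20 alternatives lost that call, among them the omission of any 1 library other than Atf3KO replicate 1, with adjusted p of up to 0.221.

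Lpl, the partner enzyme of apolipoprotein C2, was the most abundant gene of the set in the Scramble and JunKO libraries and in Atf3KO replicate 1. In Atf3KO replicate 2 Apoc2 (169 RPKM) was about level with it, and in JunDKO Apoc2 was higher in replicate 1 and lower in replicate 2. It measured 334 and 396 RPKM in Scramble, 220 and 166 with the Atf3KO label, 388 and 474 with JunKO and 543 and 627 with JunDKO. Atf3KO lay below and JunDKO above all others, and Scramble and JunKO overlapped. In Atf3KO Lpl was 0.92 ± 0.21 below Scramble (limma-trend adjusted p = 0.00974), under 2-fold. It was called at -1.05 without Scramble replicate 1, at -1.12 without Atf3KO replicate 1 and after either rescaling (-1.06 and -1.05), whereas its adjusted p by limma-trend was 0.0737 without Scramble replicate 2, and with the GC trend removed the difference was -0.43. Against JunKO it was lower by 1.16 ± 0.21 (limma-trend adjusted p = 0.00530), a call lost without Atf3KO replicate 2 (-0.96). The JunDKO difference was 0.68, or 0.38 after the library medians were made equal.

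Mylip, the ubiquitin ligase that limits lipoprotein uptake, was highest in Scramble, at 13.9 and 15.3 RPKM. It measured 6.65 and 5.90 with the Atf3KO label, 8.48 and 9.02 with JunKO and 7.14 and 5.38 with JunDKO. No library of an edited group reached a Scramble library, and Atf3KO and JunDKO overlapped. In Atf3KO Mylip was lower by 1.10 ± 0.21 (log2, SE, limma-trend adjusted p = 0.00526), below the 16 RPKM that a call requires. In JunKO it stood 0.68 below Scramble (limma-trend adjusted p = 0.390), and in JunDKO 1.12 below.

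**Figure D3:**
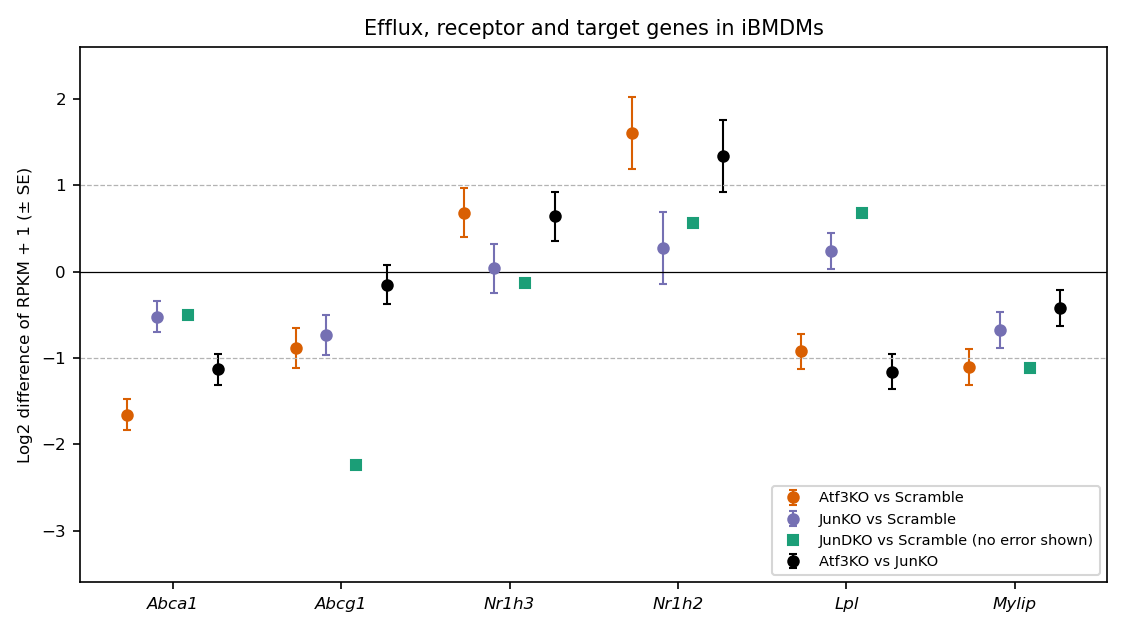
Log2 difference, on the log2(RPKM + 1) scale, of the 6 members outside the cluster in 4 contrasts of iBMDM groups, with SE from limma-trend (n = 2 libraries per group) and dashed lines at 2-fold. Abca1 lies at -1.66 in Atf3KO and Abcg1 at -2.24 in JunDKO (squares, drawn without an error), and Nr1h2 has wide bars, with 33.7 and 78.7 RPKM in the Atf3KO libraries.

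Side by side, the libraries labelled JunDKO held more Apoc2, Apoc4-apoc2, Apoc1 and Apoe and less Abcg1 and Mylip than Scramble, and the JunDKO contrast shares its controls with the others. The median over all genes tested was 0.24 in that contrast. After the library medians were made equal the differences were 5.68 for Apoc2, 1.18 for Apoe, -2.52 for Abcg1, -1.38 for Mylip, -0.79 for Abca1, 0.27 for Nr1h2 and -0.40 for Nr1h3. No direction among these turned under that scaling, but Nr1h3 stood at 0.17 without Scramble replicate 1.

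Other genes of the pathway were taken from 3 lists with 41 reported genes, of which 34 were tested in iBMDMs. Among 6 tested LXR partners and coregulators, 1 was called in Atf3KO, the partner Rxra, which was higher (19.7 against 6.23 RPKM, log2 difference 1.47 ± 0.30). Among 10 tested further LXR target genes, 3 were called, all higher: the fatty acid synthase Fasn (86.8 against 23.2 RPKM, log2 1.86 ± 0.32), the clearance receptor Mertk (26.7 against 7.65, log2 1.68 ± 0.20) and Srebf1 (1.53 ± 0.33), the regulator of fatty acid synthesis. These 3 LXR targets outside the set stood higher in the libraries labelled Atf3KO, whereas Abca1 stood lower. At a limma-trend adjusted p under 0.05, 5 of the 10 were higher and 1, Lpcat3 (-0.72), was lower, beside 41.2% of all genes. Among 18 tested genes of lipid uptake, storage and hydrolysis 2 were called. The HDL receptor gene Scarb1 (47.4 against 14.0 RPKM, log2 1.65 ± 0.28) was higher. The scavenger receptor Cd36 was lower, at 12.3 and 8.29 RPKM against 110 and 156, a log2 difference of -3.57 ± 0.24 (limma-trend adjusted p = 0.00011). In all, 6 of 34 were called beside 12.5% of all genes, with a median log2 difference of 0.35 beside 0.05. Calls of Cd36, Fasn, Mertk and Scarb1 held in all 20 alternatives. Those of Rxra and Srebf1 were lost without Scramble replicate 2 (1.33 and 1.42), without Atf3KO replicate 2 (1.07 and 1.11) and with the GC trend removed (0.99 and 0.83).

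In JunDKO 7 of the 34 were called against Scramble, beside 4.97% of all genes, with a median of 0.36 beside 0.24. Mertk (36.5 against 7.65 RPKM, log2 2.12 ± 0.20), Scarb1 (47.9 against 14.0, log2 1.71 ± 0.28), Rxra (19.5 against 6.23, log2 1.50 ± 0.30), the coactivator Ncoa3 (41.0 against 19.1, log2 1.08 ± 0.19) and the partner Rxrb (28.9 against 13.9, log2 1.02 ± 0.26) were higher. Lower were the fatty acid carrier Fabp4 (7.61 against 28.0 RPKM, log2 -1.75 ± 0.33) and the desaturase Scd2 (29.5 against 65.7, log2 -1.13 ± 0.16). The number called was 5 without Scramble replicate 1 and 2 without Scramble replicate 2 or without either JunDKO library. Of all genes 3.44% were called in the first fit and 2.47% to 3.1% in the others. Mertk and Scd2 were called in all 20 alternatives, whereas Rxrb lost its call in 12 and Ncoa3 in 6. With the library medians made equal (0.74 for Rxrb and 0.78 for Ncoa3) or under quantile normalization (0.83 and 0.93) neither was called, and the split of 5 higher and 2 lower became 3 and 4, and 3 and 2. The 8 macrophage markers summed to 16999 and 17580 RPKM in JunDKO and to 22397 and 23979 in Scramble. Lyz2 made up most of each sum, at 14815 and 15109 RPKM against 20190 and 21520. Of the 8 markers, 2 had a limma-trend adjusted p under 0.05 in JunDKO. Mrc1 was higher, at 62.7 and 63.2 RPKM against 1.18 and 0.995 in Scramble, and Itgam lower, at 213 and 220 against 441 and 420.2. Mrc1 also averaged 14.3 RPKM in Atf3KO and 14.2 in JunKO. Of the 6 neutrophil markers only S100a8 had reads in iBMDMs, at 0 in both JunDKO libraries against 34.8 and 33.2 RPKM in Scramble and 21.8 to 41.1 in Atf3KO and JunKO. The part of these markers in the results was not tested. In JunKO 1 of the 34 was called, Scd2 (143 against 65.7 RPKM, log2 1.11 ± 0.16, limma-trend adjusted p = 0.0444), beside 0.196% of all genes. That call was lost in 13 of 20 alternatives. These were the omission of any 1 of the 8 libraries, either rescaling, the replicate block, 0.1 RPKM added and the 2 groups fitted alone. Between Atf3KO and JunKO 5 of the 34 were called, beside 9.71% of all genes: Mertk, Fasn and Srebf1 higher, and Cd36 (-3.14 ± 0.24) and the phospholipid remodelling enzyme Lpcat3 (-1.06 ± 0.22) lower. Of these only Cd36 was called in all 20 alternatives, and under either rescaling 1 was called higher and 3 lower.

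**Figure D4:**
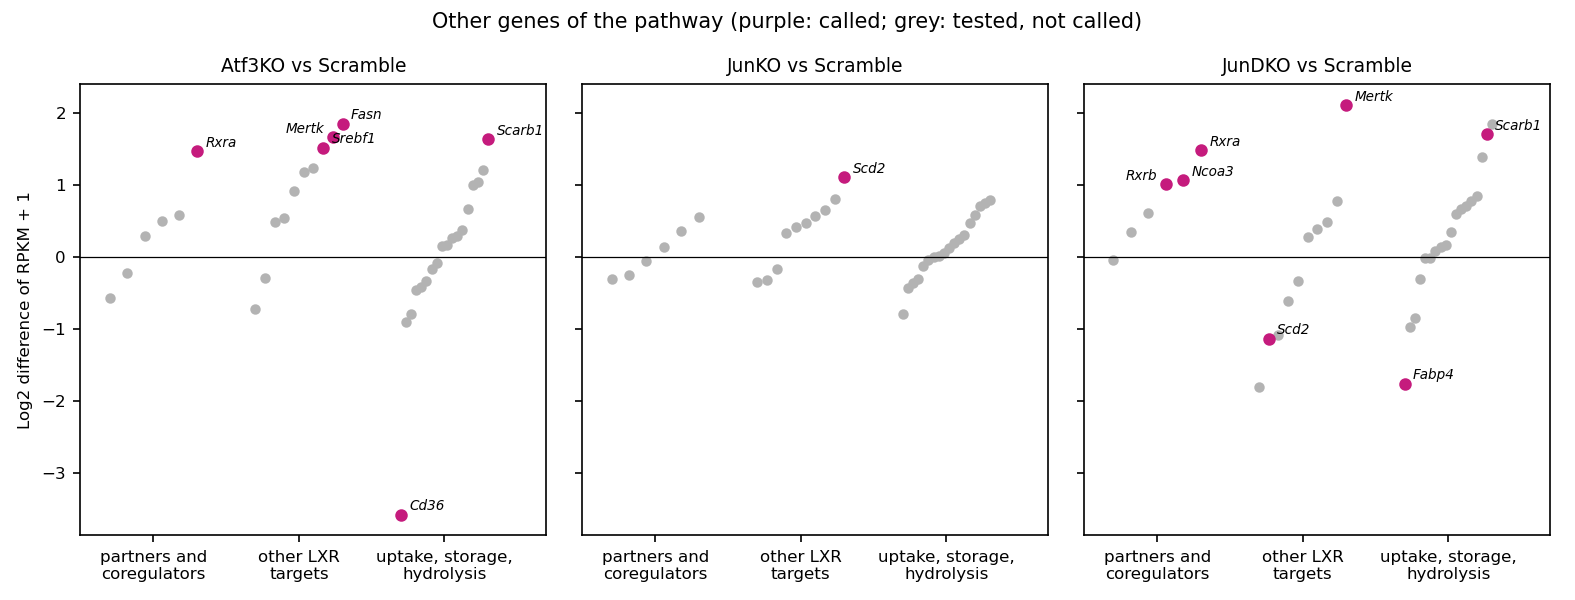
Log2 difference from Scramble, on the log2(RPKM + 1) scale, of the 34 tested genes of 3 pathway lists in the 3 edited groups, ordered by value within each list. Named purple points were called by limma-trend and grey points were tested and not called, with Cd36 at -3.57 in Atf3KO and Mertk at 2.12 in JunDKO.

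One hour of KLA left the set without a call. By limma-trend 0 of the 9 genes tested in TGEMs were called, beside 1.13% of 10357 genes, with 1 at an unadjusted p under 0.05 (15% of all genes) and 0 called by limma-voom. Apoc1 was not tested, with 0 reads in both C57Bl/6EiJ libraries and 1, 3 and 5 in the Balb/cJ libraries. The 1 gene was Mylip, at 4.75 RPKM with KLA against 8.55 with vehicle in C57Bl/6EiJ cells, and at 6.12 and 3.48 against 8.76 in Balb/cJ cells. All 3 KLA libraries lay below both vehicle libraries, and the difference was -0.76 ± 0.28 (log2, SE, limma-trend adjusted p = 0.277). Within the pairs that share a date it was -0.73 and -0.45. Abca1 measured 24.2 RPKM with KLA against 21.2 in C57Bl/6EiJ cells, and 12.0 and 11.3 against 6.32 in Balb/cJ cells. KLA was higher within each strain, by 0.53 ± 0.26 (limma-trend adjusted p = 0.378). Abcg1 measured 55.8 RPKM with KLA against 66.7 with vehicle in C57Bl/6EiJ cells, and 43.1 and 47.4 against 51.4 in Balb/cJ cells, a difference of -0.21 ± 0.25. Lpl measured 551 RPKM with KLA against 660 in C57Bl/6EiJ cells, and 205 and 97.3 against 291 in Balb/cJ cells. Its difference was -0.70 ± 0.39 (limma-trend adjusted p = 0.427), and -0.26 and -0.50 within the pairs that share a date. The median of the 9 genes was -0.22, beside -0.15 over all genes tested. Among the neighbours of the cluster Relb, the NF-kappaB subunit gene next to Clptm1, was called, at 32.8 RPKM with KLA against 12.8 in C57Bl/6EiJ cells and at 40.3 and 33.4 against 7.44 in Balb/cJ cells (1.79 ± 0.29, limma-trend adjusted p = 0.0327). Leaving out any 1 of the 5 libraries ended this call, at 1.29 to 2.16 with adjusted p of 0.0594 to 0.504.

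Between strains, all 9 tested genes had lower fitted values in Balb/cJ than in C57Bl/6EiJ TGEMs, as did 56.1% of all genes, but Apoe, Apoc2, Apoc4-apoc2 and Mylip turned positive under some alternatives. By limma-trend 0 were called, beside 1.16% of all genes. At an unadjusted p under 0.05 there were 3, Lpl, Abca1 and Nr1h3, beside 21.4% of all genes, and limma-voom called 2, beside 3.33%. Lpl measured 291, 205 and 97.3 RPKM in Balb/cJ cells against 660 and 551 in C57Bl/6EiJ cells, without overlap, a difference of -1.62 ± 0.39 (log2, SE, limma-trend adjusted p = 0.0804). Abca1 measured 6.32, 12.0 and 11.3 RPKM against 21.2 and 24.2, also without overlap, a difference of -1.26 ± 0.26 (limma-trend adjusted p = 0.0549). Both were called by limma-voom, with the GC trend removed, and where only genes with a mean of at least 5 RPKM were tested, at limma-trend or limma-voom adjusted p of 0.00208 to 0.0496. Nr1h3 measured 14.3, 18.4 and 24.5 RPKM against 38.6 and 34.3 (-0.97 ± 0.29, limma-trend adjusted p = 0.126). Nr1h2 measured 31.6, 40.6 and 35.9 against 56.99 and 48.9 (-0.56 ± 0.26, limma-trend adjusted p = 0.275). Apoe differed by -0.15 ± 0.25, with overlapping libraries. Of the 36 pathway genes tested 1 was called, Cd5l, an LXR target of tissue macrophages, at 0.421 to 1.57 RPKM in Balb/cJ against 16.6 and 20.9 in C57Bl/6EiJ cells (-3.48 ± 0.28, limma-trend adjusted p = 0.00152), and without the Balb/cJ vehicle library its adjusted p was 0.0588. The 8 macrophage markers summed to 9052 to 11024 RPKM in Balb/cJ and to 8042 and 8565 in C57Bl/6EiJ cells, most of it from Lyz2 and Cd68. Of the 8, Csf1r was called lower in Balb/cJ (-1.37, limma-trend adjusted p = 0.0483), a call lost in 9 of 15 alternatives. Adgre1 (-0.98), Mrc1 (-0.92), Itgam (-0.79) and Spi1 (-0.31) had negative and Cd68, Lyz2 and Cd14 positive differences, none of them called, and their part in the results was not tested. Strain and date cannot be told apart, since the libraries of each strain carry dates of their own.

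The genes most like 3 of the members over the 13 libraries were ranked by Pearson's r of log2(RPKM + 1) among 6386 genes with at least 16 RPKM in a library. These r describe the libraries, which differ in cell source and depth, and carry no test. Most like Apoc2 were the coactivator gene Ncoa3 (r = 0.970), Ctnnbl1 (0.964), the mitotic kinase gene Plk1 (0.951), Gnpat (0.951) and Rassf2. Ncoa3 ran from 19.1 RPKM in Scramble to 41.0 in JunDKO on average. Most like Apoe were Epas1 (0.995), Atp6v0d2 (0.995), Gpnmb (0.993), Rai14 (0.992) and Vcl (0.992), over libraries that include the gap between TGEMs and iBMDMs. Within the 8 iBMDM libraries these r were 0.909 to 0.969. Most like Abca1 were Riok3 (0.892), Raet1e (0.887), Mir7009 (0.882), Mir142 (0.881) and Cyb5r4 (0.880), of which the short microRNA models rest on few reads. Among the members, Apoc2 and Apoe had an r of -0.61 over the 13 libraries, Apoc2 and Abcg1 of -0.92, and Nr1h3 and Nr1h2 of 0.78. These r span the same gap between TGEMs and iBMDMs. Within iBMDMs Apoc2 and Apoe were both highest in JunDKO, whereas in Atf3KO Apoc2 stood above Scramble and Apoe below it.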

How the data were processed

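PolyA RNA-seq of 13 macrophage libraries was used. The authors mapped reads with STAR (Balb/cJ reads to a genome of that strain built on mm10, all others to mm10) and counted exons with HOMER, 1 model per gene. Versions and a strand option are not given in the sources used here. The deposited values are RPKM. Whole reads were recovered from their steps (100% of values up to 50 reads were whole). No comparison columns were used, and 0 columns of other samples were in the table.

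log2(RPKM + 1) of genes with a mean of at least 1 RPKM was fitted with limma-trend (limma 3.58.1, R 4.3.3), with 4 group means over 8 iBMDM libraries (4 residual degrees of freedom) and treatment plus strain over 5 TGEM libraries (2). Two-sided p values were corrected over all genes tested (Benjamini-Hochberg). A call needed an adjusted p under 0.05, 2-fold and 16 RPKM. For knockout expression the study speaks of 2 replicate experiments. No source says whether replicates came from separate cultures, so that p values measure the spread between libraries. Fold changes understate low genes. The Balb/cJ KLA replicates were numbered in accession order. Fits were tested on simulated data. Alternatives were the pseudocount, filter, scaling, limma-voom, replicate block, fewer groups, covariates and 1 library left out. Removal of the GC trend, the crossed block and fits without Atf3KO were added after values were seen. Tables and plots were made with matplotlib 3.10.9, scipy 1.17.1, pandas 2.3.3 and numpy 2.4.6 in Python 3.11.15.

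The 10 genes, the lists, the motifs and the tests were chosen with earlier results of these data known. Named were all members in every library, list genes called (at most 8 per list), all models within 100 kb, the targeted genes and the 5 most similar genes of 3 members. Some list genes are not reported here.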

Additional observations from a re-analysis of the deposited data

Results flagged for a closer look

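With KLA, 4 of the members moved one way in C57Bl/6EiJ TGEMs and the other way in both Balb/cJ KLA libraries. Of these, Apoc2 and Apoc4-apoc2 count as 1 locus. The share of all genes with such opposite directions was not counted, so that the number is no result about the members. Apoc2 measured 4.48 RPKM with vehicle and 7.03 with KLA in C57Bl/6EiJ cells, against 9.77 with vehicle and 3.17 and 1.87 with KLA in Balb/cJ cells, on 7 to 31 reads. The readthrough Apoc4-apoc2, which shares these reads, measured 3.99 and 6.26 RPKM against 8.70, 3.45 and 1.67. Nr1h3 measured 38.6 and 34.3 RPKM in C57Bl/6EiJ cells, against 14.3, 18.4 and 24.5 in Balb/cJ cells. Nr1h2 measured 56.99 and 48.9 RPKM, against 31.6, 40.6 and 35.9. The interaction of treatment and strain was tested with limma-trend on 1 residual degree of freedom. It gave a difference in the KLA effect, Balb/cJ minus C57Bl/6EiJ, of -2.19 for Apoc2 (limma-trend adjusted p = 0.511; 0.0116 unadjusted), -2.04 for Apoc4-apoc2 (limma-trend adjusted p = 0.589), 0.70 for Nr1h3 (limma-trend adjusted p = 0.802) and 0.48 for Nr1h2 (limma-trend adjusted p = 0.859). Over all 10357 genes 0 passed by limma-trend and 835 had an unadjusted p under 0.05. The Balb/cJ effect rests on 1 vehicle library, and the cause was not tested.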

How the results depend on the processing

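Counts of the 10 members called stayed within 1.5 times the reported ones under most settings. For Atf3KO against Scramble they ran from 3 to 6 beside 4, with 6 under either rescaling and with no RPKM minimum, and from 3 to 5 when 1 library was left out. Of all genes, 12.6% were called at equal medians, 11.8% after quantile normalization and 28.7% with no RPKM minimum, beside the reported 12.5%. With 1 library left out this share was 7.89% to 16.5%. For Atf3KO against JunKO the count was 2 with the GC trend removed and 2 to 5 with 1 library left out, beside 5. The share of all genes was 5.63% and 4.94% to 13.5% there, beside 9.71%. For JunKO it was 2 with the GC trend removed (0.58% of all genes), beside 0 (0.196%). For strain it was 2 with a mean of at least 5 RPKM (3.8% of all genes), 2 by limma-voom (3.33%) and 2 with the GC trend removed (0.917%), beside 0 (1.16%). For KLA it was 0 under all 15 settings. In JunDKO 11 of the 34 pathway genes were called with no RPKM minimum, beside 8.77% of all genes. With 1 library left out 2 to 7 were called, beside 2.47% to 5.06%. The reported count was 7, beside 4.97%.

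Deviations of same-numbered libraries correlated at 0.185 to 0.225 among Scramble, JunKO and JunDKO and at -0.215 to -0.12 between these and Atf3KO. With 2 replicates per group it was not settled whether the numbers pair the samples. With the replicate block the counts called were 4 (Atf3KO), 0 (JunKO), 6 pathway genes (JunDKO) and 4 (Atf3KO against JunKO). Of all genes 12.3%, 0.0748%, 4.73% and 9.62% were called in these contrasts. With Atf3KO numbers crossed the 2 Atf3KO contrasts had counts of 4 and 5, beside 13% and 10.3% of all genes. The TGEM libraries carry no replicate numbers, but 2 vehicle and KLA pairs share a date. The fit without Balb/cJ KLA replicate 2 holds these 2 pairs alone, with strain standing for date, and called 0 members for KLA.

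Directions turned for members that were not called. With the GC trend removed the log2 values were -0.016 (Nr1h3, JunKO), -0.10 (Nr1h2, KLA), 0.26 (Apoe, strain) and 0.029 (Apoc4-apoc2, strain). Without strain as a covariate Nr1h2 was at -0.034 with KLA. Mylip between strains was at 0.0055 with a pseudocount of 5, 0.079 at equal medians, 0.092 after quantile normalization and 0.029 by limma-voom. With 1 library left out, values ran from -0.27 to 0.35 (Nr1h3, JunKO), -0.45 to 0.17 (Nr1h3, JunDKO), -0.077 to 0.62 (Nr1h2, JunKO), -0.37 to 0.066 (Abcg1, Atf3KO against JunKO), -1.64 to 0.55 (Apoc2, KLA), -1.49 to 0.54 (Apoc4-apoc2, KLA), -0.16 to 0.54 (Nr1h3, KLA), -0.22 to 0.26 (Nr1h2, KLA), -0.43 to 0.062 (Apoe, strain), -1.22 to 0.98 (Apoc2, strain), -1.08 to 0.96 (Apoc4-apoc2, strain) and -0.17 to 0.17 (Mylip, strain). The causes were not tested.

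The Scramble and JunKO libraries and 1 JunDKO library held 1553296 to 1929988 reads. In Scramble and JunKO Apoe, Apoc1 and Apoc2 rest on at most 24 reads a library, so that their differences are imprecise. Depth differs 11.9-fold between the JunDKO libraries.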
